A study of Rattus norvegicus with 6 samples.

Results

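Hox cluster genes encode homeodomain transcription factors that give cells their position along the head to tail axis of the embryo. They lie in 4 clusters, A to D, in which genes are numbered 1 to 13 by paralogue group, and low numbers act towards the head while high numbers act towards the tail. In the mouse reproductive tract, Hoxa9, Hoxa10, Hoxa11 and Hoxa13 are known for patterning the ducts along their length, among them the epididymis, the coiled duct in which sperm mature. The members described here are all genes whose symbol is Hox, a cluster letter and a number, measured by a probe set that carried that symbol alone. They numbered 31 of the 18166 genes tested, with 8 in cluster A (chromosome 4), 10 in cluster B (chromosome 10), 7 in cluster C (chromosome 7) and 6 in cluster D (chromosome 3). RefSeq lists 39 rat Hox genes in these clusters on the GRCr8 build, of which 8 were not analysed here.

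Epididymal cells of Sprague-Dawley rats, 48 days old, were parted by a magnetic separation into basal cells and the rest, called non-basal here. Basal cells sit on the basement membrane beneath the tall principal cells of the duct lining. There were 3 Affymetrix RaGene 2.0 ST arrays of total RNA per fraction, read as log2 expression values from the robust multi-array average method (RMA). The design names 3 rats but no label links arrays with animals, and the surface molecule of the separation is not given, so p-values reflect the scatter among these arrays alone, part of which may be technical. The non-basal fraction is a mixture of cell types, and in such mixtures fewer cells of a type and less RNA per cell cannot be told apart.

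The fraction labels were set against marker genes. All 18 measured basal epithelial markers were higher in the basal fraction, with a median log2 difference of 2.48. All 15 fibroblast and stromal markers were lower, as were all 8 endothelial markers, 8 of 10 smooth muscle and pericyte markers and 6 of 14 leukocyte markers. Of 15 principal cell markers 1 was lower and 14 did not pass. Of 8 narrow and clear cell markers 0 passed in limma, and 0 had an unadjusted p under 0.05. Basal replicate 3 and non-basal replicate 1 stood apart from the others of their fraction. The mean log2 deviation of the fibroblast markers from each gene's mean over the 6 arrays was -2.28, -1.93 and -0.871 for the basal replicates in order, and 1.12, 2.06 and 1.91 for the non-basal ones. That of the leukocyte markers was -0.894, -0.549 and -0.646, then 0.0198, 1.09 and 0.977. Fibroblast markers that were lower numbered 9 when any of basal replicate 2 and non-basal replicates 2 and 3 was omitted. Leukocyte markers that were lower numbered 10 without non-basal replicate 1 and 3 when any of basal replicates 1 and 2 and non-basal replicates 2 and 3 was omitted. Principal cell markers that were lower numbered 7 without basal replicate 3 and 0 when any of those same 4 arrays was omitted.

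In the basal fraction, 4 of 7 members of cluster C and 2 of 8 of cluster A were lower, led by Hoxc8, which was 10.9-fold lower, and Hoxa6, which was 4.63-fold lower. In cluster B all 10 differences were above 0, of which those of Hoxb6, Hoxb7 and Hoxb13 turned sign in other fits, and Hoxb5 was 1.78-fold higher. Of all 18166 genes, 9245 had a difference above 0. In cluster D, Hoxd10 was 1.61-fold lower. With limma and Benjamini-Hochberg adjustment over all genes, 8 of the 31 Hox genes passed at an adjusted p under 0.05, which is 25.8%, against 14.9% of all genes tested. Of these, Hoxb5 was higher, 3.23% of the members against 7.71% of all genes. The 7 that were lower were Hoxa6, Hoxa7, Hoxc4, Hoxc5, Hoxc8, Hoxc10 and Hoxd10, 22.6% of the members against 7.14% of all genes. The median log2 difference was 0.01 over the members and 0.0034 over all genes. By cluster it was -0.63 in A, 0.27 in B, -0.71 in C and 0.05 in D. Arrays of the fractions did not overlap for 12 of the 31 members, a share near the 32.9% of all genes. These were 2 higher and 10 lower members of the 31, against 17.6% and 15.3% of all genes. The difference between clusters was not tested.

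**Figure D1:**
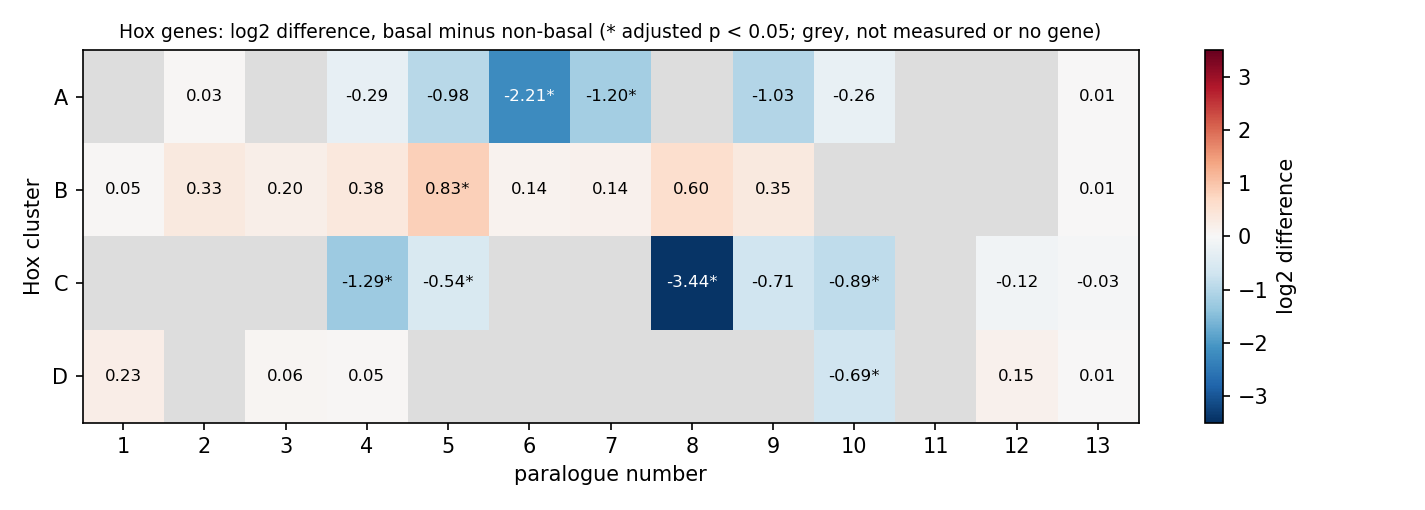
Log2 difference, basal minus non-basal, of each measured Hox gene by cluster (rows) and paralogue number (columns), with a mark at an adjusted p under 0.05. Values in row B run from 0.01 to 0.83, and the lowest values are those of Hoxc8 at -3.44 and Hoxa6 at -2.21.

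Single arrays moved these counts. The members that were lower numbered 2 without basal replicate 1, and 1 when any of basal replicate 2 and non-basal replicates 2 and 3 was omitted. No member was higher in any of these 4 fits, and none was when basal replicate 3 was omitted, where 8 were lower. Omitting non-basal replicate 1 gave 4 higher and 9 lower. With both arrays that stand apart omitted, a fit added after the data were seen, 5 were higher and 9 lower. Higher genes made up 51.9% of the calls over all genes on the deposited values and 64.8% after centring each array on its median, where 2 Hox genes were higher and 8 lower.

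Promoter sequence is shown for the lower members that had a reference window, since these moved in 1 direction. Windows were found for 15 of the 31 members, in 16 windows since Hoxa10 has more than 1. The 250 bases before the start are printed 5′ to 3′ on the gene's strand, from RefSeq on GRCr8. They are chr4:82639464-82639713 on the minus strand for Hoxa6, chr4:82648242-82648491 on the minus strand for Hoxa7, chr7:136048809-136049058 on the plus strand for Hoxc4 and chr3:80001697-80001946 on the plus strand for Hoxd10. Capitals mark matches, on either strand, to the homeodomain core TAATTA, the TATA box core TATAAA, the GC box GGGCGG, the CCAAT box CCAAT or the nuclear receptor half-site AGGTCA. None of the 5 contains another, and neighbouring matches can share bases.
Hoxa6: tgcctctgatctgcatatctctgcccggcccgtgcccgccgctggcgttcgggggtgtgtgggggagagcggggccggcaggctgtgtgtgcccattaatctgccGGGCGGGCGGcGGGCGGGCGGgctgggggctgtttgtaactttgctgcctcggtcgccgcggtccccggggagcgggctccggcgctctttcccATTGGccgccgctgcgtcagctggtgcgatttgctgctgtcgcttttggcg
Hoxa7: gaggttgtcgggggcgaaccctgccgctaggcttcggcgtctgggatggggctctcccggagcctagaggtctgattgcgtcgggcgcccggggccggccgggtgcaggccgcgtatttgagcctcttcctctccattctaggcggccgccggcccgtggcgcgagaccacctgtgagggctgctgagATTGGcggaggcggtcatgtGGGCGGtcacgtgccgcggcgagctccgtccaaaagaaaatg
Hoxc4: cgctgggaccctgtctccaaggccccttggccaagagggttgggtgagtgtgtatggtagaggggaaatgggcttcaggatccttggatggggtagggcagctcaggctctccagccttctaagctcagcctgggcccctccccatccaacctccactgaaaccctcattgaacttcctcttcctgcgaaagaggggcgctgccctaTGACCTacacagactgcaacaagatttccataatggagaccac
Hoxd10: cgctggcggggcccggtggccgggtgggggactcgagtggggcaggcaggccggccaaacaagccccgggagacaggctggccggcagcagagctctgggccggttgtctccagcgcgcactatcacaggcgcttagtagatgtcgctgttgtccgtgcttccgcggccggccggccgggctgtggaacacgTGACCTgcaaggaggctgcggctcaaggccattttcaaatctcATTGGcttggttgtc
The Hoxa6 window held 4 GC boxes, at 145, 141, 134 and 130 bases before the start, and a CCAAT box at 51. The Hoxa7 window held a CCAAT box at 62 bases and a GC box at 42. The Hoxd10 window held a half-site at 58 bases and a CCAAT box at 15, and that of Hoxc4 held a half-site at 43 and no other match. Of the 16 Hox windows, 11 held a CCAAT box, against 34% of all 33469 windows of this length. A GC box was in 7 Hox windows against 30.5% of all, and a TATA box core in 4 against 12.9%. A half-site was in 3 against 14.1%, and the homeodomain core in 0 against 4.86%. GC content was 70.8% for Hoxa6, 68.8% for Hoxa7, 67.2% for Hoxd10 and 57.2% for Hoxc4, with a median of 51.2% over all windows. In the windows of Hox genes that were not called it ran from 45.2% for Hoxa2 to 78.8% for Hoxa13. A match describes the letters only.

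Cluster C held the largest difference among the members. Hoxc8, which patterns the thoracic skeleton and spinal cord, read 6.53, 6.7 and 8.62 in basal replicates 1, 2 and 3, and 10.2, 10.94 and 11.04 in the non-basal ones. Every basal array lay below every non-basal array, and basal replicate 3 lay well above the other basal arrays. The mean was 7.28 ± 1.16 (SD, n = 3) against 10.72 ± 0.459 (SD, n = 3), with a log2 difference of -3.44 ± 0.589 (SE) and a limma adjusted p of 0.0146. A more negative difference was found for 0.149% of all genes. Basal replicate 3 was also the basal array with the highest fibroblast marker values, whose part in the result was not tested. Without it the difference was -4.11 (limma adjusted p = 0.00239). The adjusted p was 0.0636 without basal replicate 1, 0.0745 without basal replicate 2, and 0.068 and 0.0797 when non-basal replicate 2 or 3 was omitted.

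Hoxc10, known for lumbar identity in the spinal cord, was the member with the smallest p. It read 4.99, 5.09 and 5.21 in the basal arrays and 5.88, 6.06 and 6.02 in the non-basal arrays. Arrays within a fraction differed by less than the gap between the fractions, and the log2 difference was -0.89 ± 0.0874 (limma adjusted p = 0.00309). Among the 8 Hox calls it alone held in all 6 fits that omit 1 array, with an adjusted p between 0.00385 and 0.0273. Its fraction means of 5.1 and 5.99 are dim, below the median of every array (6.63 to 6.7). A filter on a fraction mean of at least 7 did not keep it.

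Hoxc4 and Hoxc5 lie at the low-numbered end of the cluster, which acts in the neck and upper trunk. Hoxc4 read 6.93, 6.67 and 7.26 in the basal and 7.7, 8.73 and 8.29 in the non-basal arrays, a difference of -1.29 ± 0.284 (limma adjusted p = 0.0335). Hoxc5 read 4.67, 4.83 and 5.07 against 5.31, 5.39 and 5.48, a difference of -0.54 ± 0.117 (limma adjusted p = 0.0319). The Hoxc5 means of 4.86 and 5.39 are dim too, and the filter at 7 did not keep this gene. Neither gene's fractions overlapped, and for both, basal replicate 3 was the highest basal and non-basal replicate 1 the lowest non-basal array. The adjusted p of Hoxc4 was 0.121 and 0.132 when basal replicate 1 or 2 was omitted, and 0.0842 and 0.13 when non-basal replicate 2 or 3 was. For Hoxc5 these were 0.0915, 0.121, 0.105 and 0.125. In RefSeq the Hoxc6 gene overlaps Hoxc4 and Hoxc5, so their probe sets may share signal with Hoxc6 transcripts, which was not tested.

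Hoxc9, which sets thoracic motor neuron identity, read 7.16, 7.07 and 7.18 in the basal and 7.38, 8.02 and 8.13 in the non-basal arrays. The fractions did not overlap, with non-basal replicate 1 nearest to the basal values, and the difference of -0.71 ± 0.201 did not pass (limma adjusted p = 0.0697). Without non-basal replicate 1 it was -0.94 (adjusted p = 0.00372), while the other fits that omit 1 array gave an adjusted p of 0.118 to 0.217. Hoxc12 and Hoxc13, the latter a gene of hair and nail growth, had differences of -0.12 and -0.03, with 95% intervals of -0.32 to 0.08 and -0.28 to 0.22. Their fractions overlapped. The sign of Hoxc13 turned after centring, which moved every gene's difference up by the same amount, to 0.07. It also turned without basal replicate 2 or non-basal replicate 3, to 0.05 and 0.02. The other 6 members of cluster C kept a difference below 0 with quantile normalization, centring, array weights and each array omitted. Settings that leave the difference itself unchanged, such as the replicate block, could not turn a sign.

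**Figure D2:**
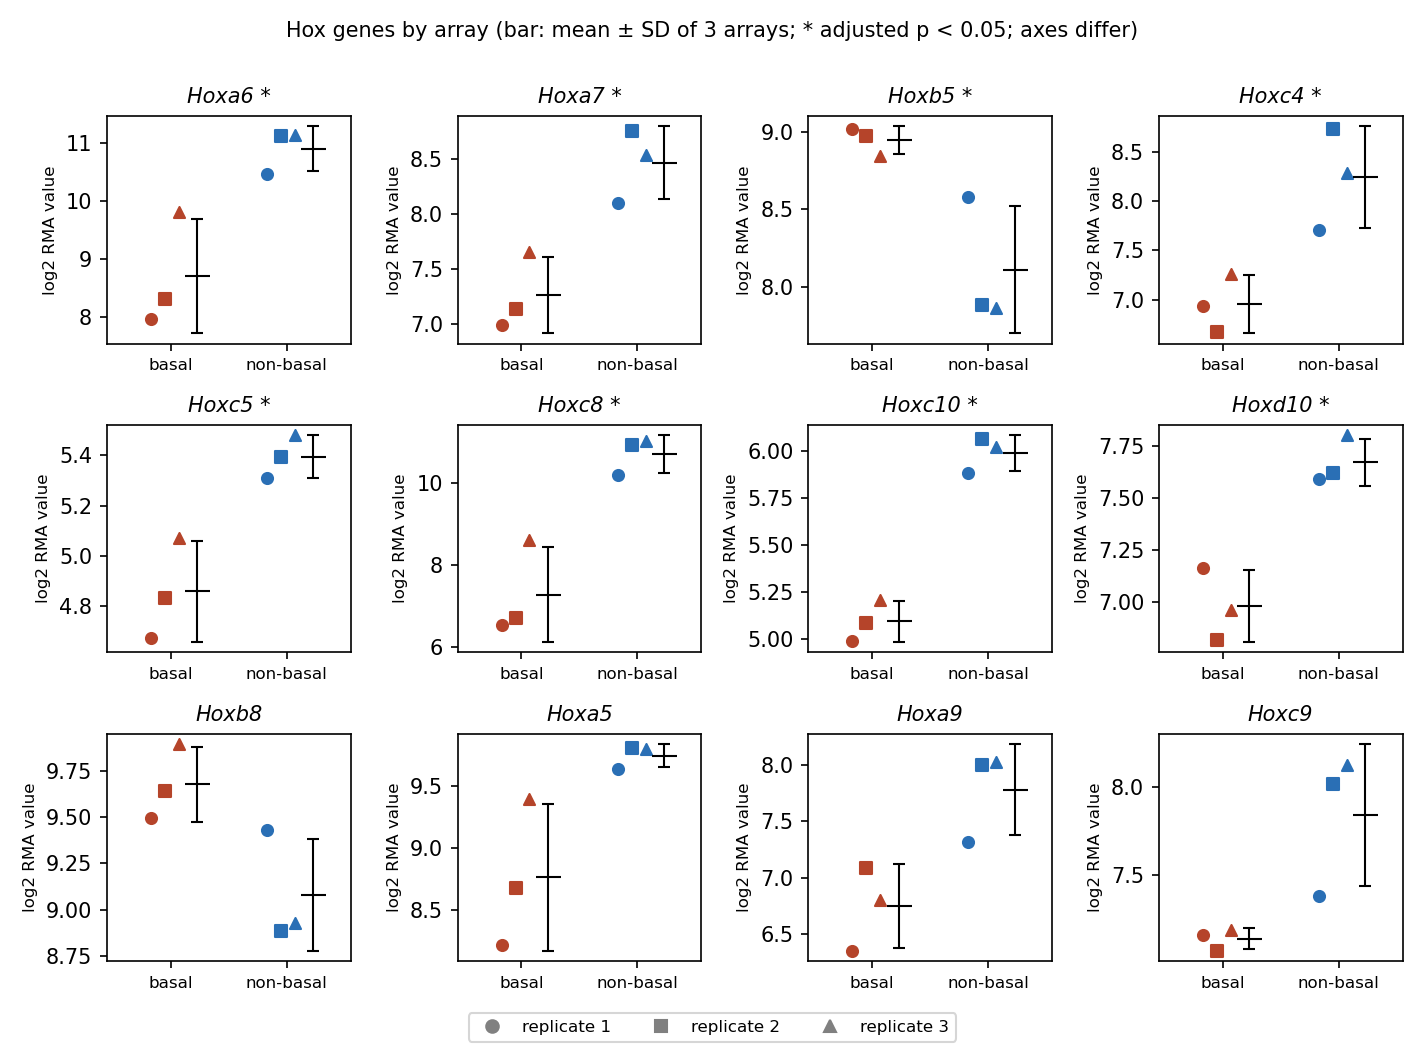
Log2 RMA value of 12 Hox genes in each array, coloured by fraction and shaped by replicate number, with bars for the mean ± SD of 3 arrays; vertical axes differ between panels. Hoxb5 and Hoxb8 are higher in the basal arrays and the other 10 lower, and basal replicate 3 is the highest basal array for Hoxc8 at 8.62 and Hoxa6 at 9.82.

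In cluster A, Hoxa6 and Hoxa7 were lower and the other 6 members did not pass. Hoxa6, a gene of thoracic patterning, read 7.97, 8.31 and 9.82 in the basal arrays and 10.46, 11.12 and 11.14 in the non-basal arrays. The fractions did not overlap, although basal replicate 3 lay nearer to non-basal replicate 1 than to the other basal arrays. The means were 8.7 ± 0.986 and 10.91 ± 0.385 (SD, n = 3 each), a difference of -2.21 ± 0.5 (limma adjusted p = 0.0358). Without basal replicate 3 the difference was -2.77 (adjusted p = 0.00436). The call was lost in the other 5 such fits, at 0.116 and 0.144 for basal replicates 1 and 2 and 0.054, 0.124 and 0.141 for non-basal replicates 1, 2 and 3.

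Hoxa7, its neighbour, read 7.0, 7.14 and 7.66 in the basal and 8.11, 8.76 and 8.54 in the non-basal arrays, without overlap. The difference was -1.2 ± 0.232 (limma adjusted p = 0.0218). The adjusted p rose to 0.0875 and 0.1 when basal replicate 1 or 2 was omitted and to 0.0786 and 0.101 for non-basal replicate 2 or 3. Hoxa5, needed for lung and trachea development, read 8.22, 8.68 and 9.39 against 9.63, 9.8 and 9.79, a difference of -0.98 ± 0.288 that did not pass (adjusted p = 0.0774). Without basal replicate 3 it was -1.29 (adjusted p = 0.00855), while the other fits that omit 1 array gave an adjusted p of 0.127 to 0.232. In RefSeq the Hoxa3 gene overlaps Hoxa4, Hoxa5 and Hoxa6, so their probe sets may share signal with Hoxa3 transcripts, which was not tested.

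Hoxa9, a gene of the reproductive ducts and of blood stem cells, read 6.36, 7.09 and 6.81 in the basal and 7.31, 8.0 and 8.03 in the non-basal arrays. Its fractions did not overlap, and the difference of -1.03 ± 0.264 lay just outside the threshold (limma adjusted p = 0.052). It passed after quantile normalization (0.0405), after centring (0.0432), with either filter on low values (0.0446 and 0.0297) and without non-basal replicate 1 (0.0247). Each other fit that omits 1 array left it short of the threshold, at an adjusted p of 0.0882 to 0.18. Hoxa10, known for uterine receptivity, read 6.53, 6.46 and 6.5 against 6.52, 6.78 and 6.96, with overlap through non-basal replicate 1. Its difference was -0.26 (95% interval -0.54 to 0.03, adjusted p = 0.208), and without that array -0.37 (adjusted p = 0.0383). Omitting any other array gave Hoxa10 an adjusted p of 0.294 to 0.417.

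The remaining members of cluster A did not pass. Hoxa4 read 6.4, 6.49 and 6.79 against 6.79, 7.08 and 6.69, a difference of -0.29 (limma adjusted p = 0.241). Hoxa2, the selector gene of the second pharyngeal arch, read 8.19, 8.58 and 9.61 in the basal and 9.05, 8.62 and 8.63 in the non-basal arrays. Basal replicate 3 held its highest value of the 6, and the difference of 0.03 (95% interval -0.87 to 0.93) became -0.38 without it, and -0.04 and -0.04 when non-basal replicate 2 or 3 was omitted. With array weights it was -0.15. Hoxa13, a gene of limb tips and the lower urogenital tract, read 5.43, 5.44 and 5.42 against 5.42, 5.42 and 5.42, and its difference of 0.01 (95% interval -0.12 to 0.14) turned to -0.06 after quantile normalization.

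In cluster B, 1 of 10 members passed, Hoxb5, which was higher. Hoxb5, a gene of the enteric nervous system and of blood stem cells, read 9.02, 8.97 and 8.85 in the basal arrays and 8.58, 7.89 and 7.87 in the non-basal arrays. The fractions did not overlap, and non-basal replicate 1 was nearest to the basal arrays. The means were 8.94 ± 0.089 and 8.11 ± 0.407 (SD, n = 3 each), a difference of 0.83 ± 0.203 (limma adjusted p = 0.0452). Without non-basal replicate 1 it was 1.07 (adjusted p = 0.00345). The call was lost in the other 5 such fits, at 0.152, 0.157 and 0.0748 for basal replicates 1, 2 and 3 and 0.143 and 0.156 for non-basal replicates 2 and 3. RefSeq places the antisense transcript Hoxb5os over Hoxb5 and Hoxb6, and its part in the result was not tested.

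Hoxb8, a gene of trunk patterning and of myeloid progenitors, read 9.5, 9.64 and 9.9 in the basal and 9.43, 8.88 and 8.93 in the non-basal arrays. All basal values lay above all non-basal values, narrowly for non-basal replicate 1, and the difference of 0.6 ± 0.181 did not pass (limma adjusted p = 0.0831). It passed after centring, at 0.7 (adjusted p = 0.0361), and without non-basal replicate 1, at 0.77 (adjusted p = 0.0224). Centring moved the difference of every gene up by the same amount, to a median of 0.102 over all genes. Hoxb8 did not pass in the other fits that omit 1 array, with an adjusted p of 0.135 to 0.243. Hoxb4, known for expanding blood stem cells, read 8.74, 8.87 and 9.2 against 8.74, 8.47 and 8.45, a difference of 0.38 (adjusted p = 0.143).

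Hoxb9, a gene of the rib cage and mammary gland, read 8.5, 8.42 and 8.33 in the basal and 8.4, 7.84 and 7.94 in the non-basal arrays. Hoxb2, a hindbrain gene, read 9.07, 8.93 and 9.15 against 8.99, 8.51 and 8.64. Their differences were 0.35 (limma adjusted p = 0.192) and 0.33 (adjusted p = 0.173). Without non-basal replicate 1, which overlapped the basal values of both, they were 0.52 (adjusted p = 0.0167) and 0.47 (adjusted p = 0.0339). Neither passed in the other fits that omit 1 array, with an adjusted p of 0.227 to 0.4 for Hoxb9 and 0.257 to 0.366 for Hoxb2.

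The other genes of cluster B did not pass and had smaller differences. Hoxb3, a hindbrain gene, read 9.06, 9.08 and 9.52 in the basal and 9.01, 9.0 and 9.06 in the non-basal arrays, Hoxb6 read 9.34, 9.31 and 9.94 against 9.72, 9.23 and 9.23, and Hoxb7 read 9.28, 9.26 and 9.42 against 9.61, 9.06 and 8.88. The fractions overlapped for all 3, and the differences were 0.2, 0.14 and 0.14. Their 95% intervals were -0.14 to 0.53, -0.4 to 0.67 and -0.33 to 0.61. The sign turned for Hoxb6 without basal replicate 3, to -0.07, and for Hoxb7 without non-basal replicate 3, to -0.01. Hoxb1, a gene of hindbrain segment identity, read 7.54, 7.43 and 7.45 against 7.44, 7.39 and 7.45. Hoxb13, the posterior gene known for its role in the prostate, read 5.43, 5.34 and 5.27 against 5.21, 5.31 and 5.49, a difference of 0.01 (95% interval -0.22 to 0.24). Hoxb13 turned under quantile normalization, to -0.06, so that 9 of the 10 differences in cluster B were then above 0. It also turned when basal replicate 1, non-basal replicate 1 or non-basal replicate 2 was omitted, to -0.03, -0.05 and -0.0014, and with array weights, to -0.0078.

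**Figure D3:**
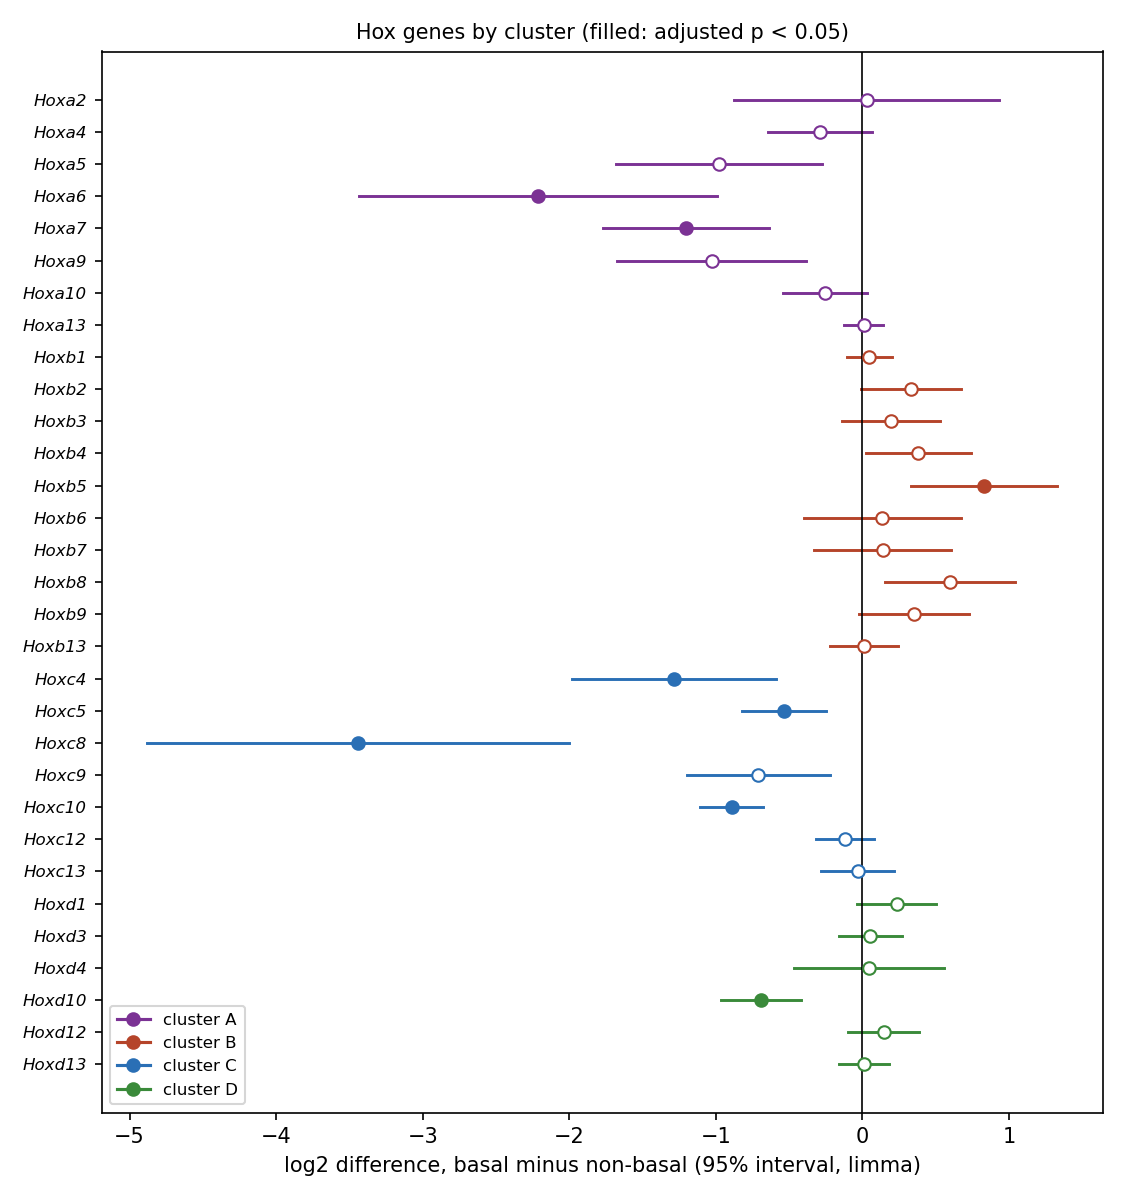
Log2 difference, basal minus non-basal, with its 95% interval from limma for each of the 31 Hox genes, coloured by cluster and filled at an adjusted p under 0.05. The intervals of Hoxc8 (-4.88 to -2.0) and Hoxc10 (-1.1 to -0.68) lie below 0, and that of Hoxb5 (0.34 to 1.33) lies above 0.

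In cluster D, Hoxd10, which acts with Hoxc10 in lumbar patterning, was the 1 member to pass. It read 7.16, 6.82 and 6.96 in the basal arrays and 7.59, 7.62 and 7.8 in the non-basal arrays, without overlap, a difference of -0.69 ± 0.112 (limma adjusted p = 0.0122). Here basal replicate 3 lay between the other basal arrays. The adjusted p was 0.0501 without basal replicate 2, and 0.0509 and 0.0597 when non-basal replicate 2 or 3 was omitted. Hoxd4 read 8.0, 7.58 and 8.34 against 8.09, 8.0 and 7.69, and Hoxd3 read 7.38, 7.49 and 7.63 against 7.48, 7.36 and 7.49. Both overlapped between the fractions, with differences of 0.05 (95% interval -0.47 to 0.56) and 0.06 (-0.16 to 0.27), and both turned sign without basal replicate 3, to -0.13 and -0.0087. Hoxd4 also turned when non-basal replicate 3 was omitted, to -0.07. Hoxd1, Hoxd12 and Hoxd13, the last a gene of digits and external genitalia, had differences of 0.23, 0.15 and 0.01, and that of Hoxd13 turned to -0.07 after quantile normalization and to -0.04 without basal replicate 1.

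By paralogue number the calls lay from group 4 to group 10. All 6 members with numbers 1 to 3 had differences above 0, as had 9245 of all 18166 genes. They ran from 0.03 to 0.33, and 0 passed in limma or had an unadjusted p under 0.05. The signs of Hoxa2 and Hoxd3 turned in fits given above. Of the 13 members with numbers 4 to 8, 1 was higher, 5 were lower and 7 stayed short of the threshold. Here the members of clusters A and C were below 0 and those of clusters B and D above 0, apart from the turned signs of Hoxb6, Hoxb7 and Hoxd4. Paralogue group 5 held calls in both directions, with Hoxb5 higher at 0.83 and Hoxc5 lower at -0.54. In group 8 Hoxc8 stood at -3.44 and Hoxb8 at 0.6, and in group 4 Hoxc4 stood at -1.29 and Hoxb4 at 0.38. Of the 12 members with numbers 9 to 13, 2 were lower and 10 did not pass. In group 10, Hoxc10 and Hoxd10 passed and Hoxa10 stood at -0.26, whereas the 4 members of group 13 lay between -0.03 and 0.01.

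The deviation of each cluster by array is set beside that of the cell type markers. Over the 7 genes of cluster C the mean deviation was -0.63, -0.68 and -0.19 for the basal replicates in order and 0.27, 0.62 and 0.62 for the non-basal ones. For cluster A it was -0.7, -0.44 and 0.03 against 0.2, 0.48 and 0.43. For cluster B it was 0.11, 0.08 and 0.26 against 0.07, -0.28 and -0.25. In clusters A and C basal replicate 3 was the highest basal and non-basal replicate 1 the lowest non-basal array, which is also their place in the fibroblast and stromal and in the smooth muscle and pericyte lists. The basal epithelial markers stood at 1.33, 1.29 and 0.957 against -1.61, -0.988 and -0.98, with their lowest array non-basal replicate 1, whereas in cluster B that array was the highest of the non-basal ones. In cluster B basal replicate 3 was the highest basal array. Both arrays held these places in 2 other lists. Principal cell markers stood at -0.566, -0.253 and 0.268 against 0.351, 0.0926 and 0.109. Narrow and clear cell markers stood at -0.169, -0.224 and 0.0995 against 0.466, -0.148 and -0.0243. The part of stromal and epithelial cell content in the Hox differences was not tested. RMA values have no zero, so the absence of a marker cannot be read from them.

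**Figure D4:**
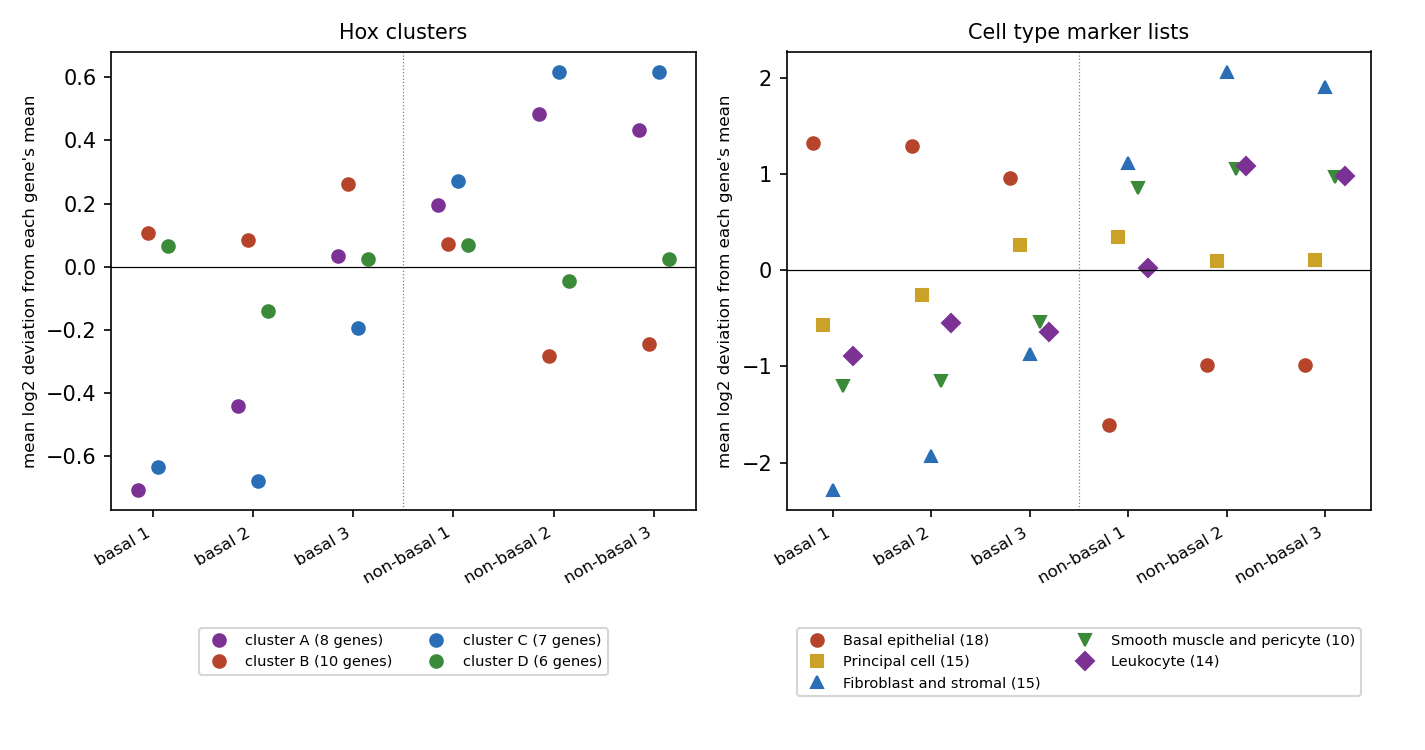
Mean log2 deviation from each gene's mean over the 6 arrays, by array, for the genes of each Hox cluster and for cell type marker lists. Cluster C runs from -0.68 to 0.62 and the fibroblast and stromal markers from -2.28 to 2.06, and both are lower in every basal than in every non-basal array.

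Hox proteins bind DNA together with TALE homeodomain proteins of the Pbx, Meis and Pknox families, and Tgif proteins are TALE repressors. Of 10 measured genes of these families 2 were higher, 3 were lower and 5 stayed short of the threshold, 50% called against 14.9% of all genes, with a median difference of -0.14. Meis2 read 7.01, 7.07 and 8.03 in the basal arrays and 9.9, 10.88 and 10.68 in the non-basal arrays, a difference of -3.12 ± 0.366 (limma adjusted p = 0.00475). Meis1 read 6.6, 6.32 and 7.39 against 8.93, 9.77 and 9.56, a difference of -2.64 ± 0.336 (adjusted p = 0.00572). Pknox2 read 6.81, 6.81 and 7.1 against 8.52, 8.8 and 8.84, a difference of -1.81 ± 0.127 (adjusted p = 0.00206). None of the 3 overlapped between fractions, and their calls held in all 6 fits that omit 1 array. For each, basal replicate 3 was the highest basal and non-basal replicate 1 the lowest non-basal array, as for the fibroblast and stromal markers, whose median difference was -3.81 and whose part in the result was not tested.

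Tgif2 and Tgif1 were higher, by 0.52 ± 0.0931 and 0.37 ± 0.079 (limma adjusted p = 0.0167 and 0.0287). Both calls were lost when any of basal replicates 1 and 2 and non-basal replicates 2 and 3 was omitted. In that order the adjusted p of Tgif2 was 0.0697, 0.0737, 0.0539 and 0.0579, and that of Tgif1 was 0.0959, 0.107, 0.0909 and 0.109.

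Polycomb group proteins keep Hox clusters silent, and trithorax proteins keep them active. Of 22 Polycomb group genes 5 were higher, 0 were lower in limma (1 at an unadjusted p under 0.05) and 17 stayed short of the threshold, 22.7% higher against 7.71% of all genes, with a median of 0.2. The 5 were Pcgf2 at 0.69 ± 0.0927 (adjusted p = 0.00664), Bmi1 at 0.51, Pcgf3 at 0.49, Phc1 at 0.37 and Pcgf5 at 0.73, all subunits of forms of Polycomb repressive complex 1. Pcgf2 held in all 6 fits that omit 1 array. The higher genes numbered 1 when any of basal replicates 1 and 2 and non-basal replicate 3 was omitted, 2 without non-basal replicate 2, and 3 when non-basal replicate 1 was omitted. Of 10 trithorax, MLL complex and demethylase genes 1 was higher, the H3K4 demethylase gene Kdm5b, at 0.33 ± 0.0642 (adjusted p = 0.0228). Its adjusted p was 0.0767, 0.075, 0.0787 and 0.0764 when basal replicate 1 or 2 or non-basal replicate 2 or 3 was omitted, and 3 genes of the list were higher without basal replicate 3. The list had 10% called against 14.9% of all genes, and with a replicate block 0 of its genes were higher in limma, where 4 had an unadjusted p under 0.05 without the block.

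Of 20 genes beside the clusters or in the related ParaHox and Evx families, 1 was higher, 3 were lower and 16 stayed short of the threshold, 20% called against 14.9% of all genes, a share near the background. Snx10 and Jazf1, which lie on either side of cluster A, were lower at -1.16 ± 0.124 and -0.94 ± 0.11 (limma adjusted p = 0.00373 and 0.00456). Skap2, Evx1 and Hibadh, also beside cluster A and named after their values were seen, did not pass. Their differences were 0.05, 0.07 and 0.36. Beyond cluster C, Cbx5, a heterochromatin protein gene, was lower at -0.49 ± 0.0735 (adjusted p = 0.00986) and its neighbour Hnrnpa1, an RNA-binding protein gene, was higher at 0.6 ± 0.113 (adjusted p = 0.02). The adjusted p of Cbx5 was 0.0515 without basal replicate 2, and 0.0519 when non-basal replicate 3 was omitted. That of Hnrnpa1 was 0.0857, 0.077, 0.051 and 0.058 when basal replicate 1 or 2 or non-basal replicate 2 or 3 was omitted. The antisense transcript Hoxa11-as, named here after its values were seen, read 6.56, 6.48 and 6.38 against 6.62, 6.56 and 6.71 and had a difference of -0.16 (adjusted p = 0.228).

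MicroRNAs are encoded between the Hox genes, and several are known to repress Hox transcripts. Mature sequences are shown for Mir10a, which passed, its relative Mir10b and the miR-196 genes of 3 clusters, from RefSeq on GRCr8, 5′ to 3′, with the seed, bases 2 to 8, in capitals. On the plus strand lie miR-10a at chr10:81779730-81779752, miR-10b at chr3:80035886-80035907, miR-196a at chr7:135988900-135988921 and miR-196c at chr10:81727561-81727582. On the minus strand lies miR-196b at chr4:82661149-82661170.
rno-miR-10a-5p: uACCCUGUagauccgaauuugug
rno-miR-10b-5p: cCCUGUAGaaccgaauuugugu
rno-miR-196a-5p: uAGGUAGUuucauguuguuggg
rno-miR-196b-5p: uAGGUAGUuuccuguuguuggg
rno-miR-196c-5p: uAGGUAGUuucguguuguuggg
The 3 miR-196 forms, of clusters C, A and B, share 1 seed. The mature forms of miR-10a and miR-10b begin at different bases in this table, so their listed seeds differ. Of the 6 hairpin genes measured, Mir10a of cluster B was higher and 5 stayed short of the threshold, 16.7% called against 14.9% of all genes. Mir10a read 4.39, 4.47 and 4.64 in the basal and 4.01, 3.54 and 3.25 in the non-basal arrays, without overlap, a difference of 0.9 ± 0.197 (limma adjusted p = 0.0326). These are dim values, under 5 in the mean of both fractions, so neither filter on low values kept the gene. Its adjusted p was 0.00816 without non-basal replicate 1, and the call was lost in the other 5 such fits, at 0.096, 0.118 and 0.076 for basal replicates 1, 2 and 3 and 0.114 and 0.0905 for non-basal replicates 2 and 3. The other genes of this paragraph are named after their values were seen. Mir10b, which RefSeq places within Hoxd4, had a difference of 0.62 (adjusted p = 0.0929), and Mir196a, Mir196b and Mir196c had -0.0026, 0.004 and 0.06. Whether such a probe set reads the hairpin, its host transcript or the mature form cannot be told apart here.

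**Figure D5:**
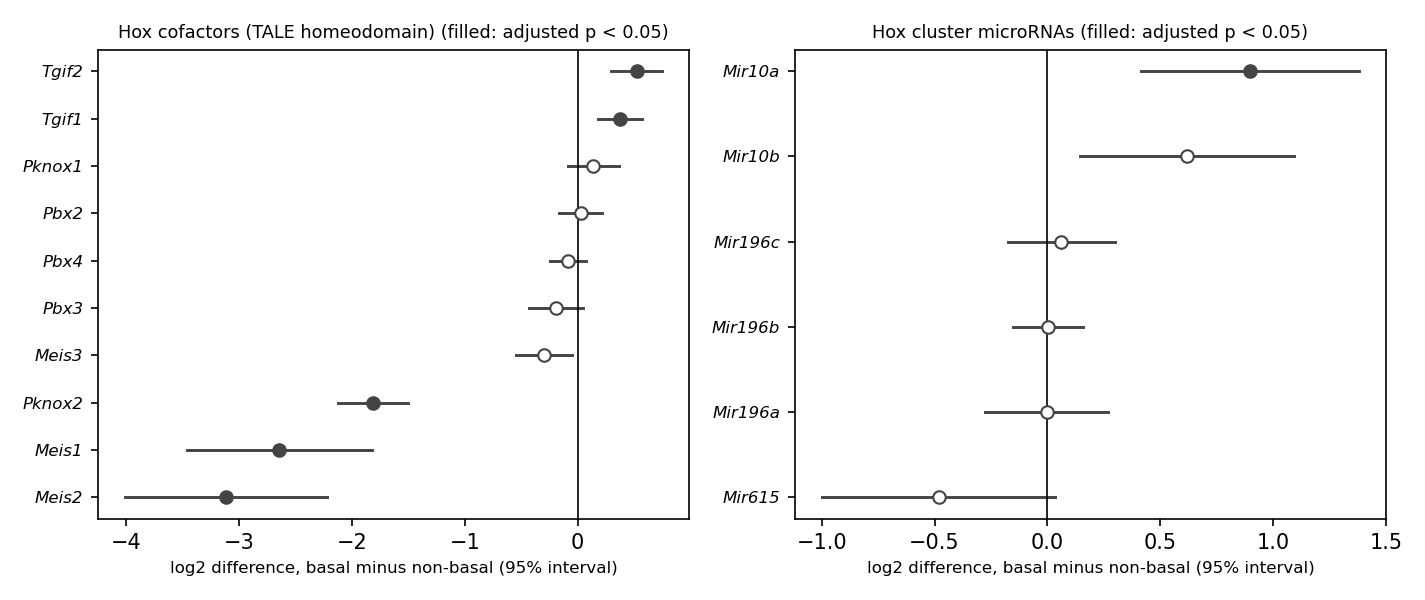
Log2 difference, basal minus non-basal, with its 95% interval from limma for TALE homeodomain genes and for hairpin genes of the Hox clusters, filled at an adjusted p under 0.05. Meis2 at -3.12 and Meis1 at -2.64 are the lowest, and Mir10a at 0.9 is the highest of the hairpin genes.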

How the data were processed

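The deposited values are log2 expression values, which the authors made with RMA in Affymetrix Expression Console according to the submitters' processing notes. Software version, probe set library and build are not given in the sources used here. RMA matches the distributions of the arrays, so a shift of most genes at once would not be seen. The number of arrays limits the precision. Of 36685 probe sets, 18511 carried 1 symbol in the platform annotation, 575 several and 17599 none. Where a gene had several, the one of highest mean was kept, which left 18166 genes, and each Hox gene had 1. All 31 Hox symbols, and the Entrez identifiers of 28, were in RefSeq's GRCr8 table.

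Differences, basal minus non-basal, were fitted over all genes with limma 3.58.1 in R 4.3.3 (two-sided, no block, Benjamini-Hochberg over all genes, called under 0.05), and the procedure was tested on simulated data. The smallest SD of the difference between arrays of 1 fraction was 0.301, so none was a copy. The members and lists were chosen with earlier results of these data known. Every Hox gene may be named, and of each other list up to 6 called members, smallest p first. Alternatives were a replicate block, quantile normalization, centring on array medians, a fraction mean of at least 5 or 7, trended robust variances, weighted arrays, probe sets averaged per gene, thresholds of 0.01 and 0.1, and omission of each array.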

Additional observations from a re-analysis of the deposited data

How the results depend on the processing

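On the deposited values 1 Hox gene was higher, 7 were lower and 2698 genes were called in all. Array weights gave 4, 11 and 5191. A threshold of 0.01 gave 0, 1 and 1047. Omitting basal replicate 3 with non-basal replicate 1, chosen after seeing the data, gave 5, 9 and 4623. Higher Hox genes numbered 2 after centring and 2 at a threshold of 0.1. With 1 array omitted, the ranges were 0 to 4 higher, 1 to 9 lower and 1069 to 3543 genes in all. The cause was not tested, beyond the fewer arrays and the other thresholds themselves. The same-numbered arrays' deviations correlated at 0.0312, 0.0383 and 0.0278, so the numbers were not taken to pair samples, though each array correlated best with its own number, a hint from the data. The replicate block kept the Hox counts at 1 and 7, with Hoxc4 lost (limma adjusted p = 0.0641) and Hoxa9 gained (0.0125), and gave 2009 calls over all genes. Under the block 0 cofactor genes and 0 cluster neighbours were higher in limma, and 2 Polycomb genes, while Kdm5b of the trithorax list lost its call. Over 515 pairs of a Hox gene and an alternative, direction and side of the threshold stayed in 422. A call was lost in 37 and gained in 33, and the sign turned in 23, of members called in neither fit. The replicate block, both filters, trended robust variances, probe sets averaged per gene and the thresholds left every Hox difference as it was. In those pairs the sign could not turn. The median difference of all genes was 0.00343 on the deposited values, -0.0292 with quantile normalization and 0.102 with centring.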

Other observations

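Transcription factors of the Wolffian duct, the embryonic duct that becomes the epididymis, and of urogenital mesenchyme were measured for 17 genes. Of these 2 were higher, 7 were lower and 8 stayed short of the threshold, 52.9% called against 14.9% of all genes, with a median difference of -0.32. Gata2, a zinc finger factor, was lower at -1.83 ± 0.114 (limma adjusted p = 0.00176). Tcf21, a factor of stromal cells, was lower at -2.74 ± 0.304, the nuclear receptor gene Nr2f1 at -2.35 ± 0.337 and Eya1 at -0.56 ± 0.0804. Lhx1, an early duct factor, was higher at 1.02 ± 0.091 (adjusted p = 0.0026). Gata2, Tcf21, Eya1 and Lhx1 held in all 6 fits that omit 1 array, and the adjusted p of Nr2f1 was 0.052 without basal replicate 2, and 0.0542 when non-basal replicate 3 was omitted. The list's lower genes numbered 4 without basal replicate 1, 3 without basal replicate 2, and 3 when non-basal replicate 3 was omitted. Its higher genes numbered 1 in each fit that omits 1 array except that without non-basal replicate 1, with 3. Stromal markers were lower in the same arrays, and their part in these values was not tested.

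Among 21 measured genes of signals and enzymes often named beside Hox genes, 5 were higher, 5 lower and 11 stayed short of the threshold, 47.6% called against 14.9% of all genes, with a median of -0.0059. Bmp7, a growth factor gene, was higher at 1.32 ± 0.0803 (limma adjusted p = 0.00176), Shh, for a secreted patterning signal, at 1.49 ± 0.113 and Cyp26b1, whose enzyme breaks down retinoic acid, at 0.52 ± 0.0647. Bmp4 was lower at -1.96 ± 0.235, Fgf2 at -1.5 ± 0.165 and Wnt5a at -0.82 ± 0.105, all genes of secreted signals. The fibroblast and stromal markers were lower in the same arrays, with a median of -3.81, and their part in these values was not tested. These 6 calls held in all 6 fits that omit 1 array. The list's higher genes numbered 3 without basal replicate 1 or basal replicate 2.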
